A study of Homo sapiens with 10 samples.

Results

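To describe the active promoters and enhancers that separate 2 HER2 breast cancer cell lines at baseline, H3K27ac ChIP-seq peak lists of untreated SKBR3 cells and untreated MDA-MB-453 cells were compared. The 4 libraries labelled untreated were taken, 2 per line, out of 8 libraries with a peak list and 10 samples in all. SKBR3 and MDA-MB-453 are established breast cancer cell lines, and each stands for a single tumour. Per the labels, all cells were seeded in DMEM with FBS and then starved in optimem for 8 h, and the untreated cells received no TWEAK, the ligand of the receptor Fn14. The 4 libraries of TWEAK-treated cells of the same lines served only as further libraries in which a call could be read again, and the 2 input samples, 1 per line, were not used here.

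H3K27ac is the acetylation of lysine 27 of histone H3. It is laid down by the acetyltransferases p300 and CBP and marks promoters in use and active enhancers, the distal elements that bind transcription factors and raise transcription of a gene in cis. Promoters of widely used genes carry the mark in most cell types, whereas enhancers differ between cell types and between tumours. In luminal and HER2 breast cancer, enhancers are bound by FOXA1, GATA3, AP-2 and GRHL2. A peak is a stretch where the library exceeds its background, and its fold enrichment is the ratio of the 2.

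The SKBR3 lists held 45157 and 43684 peaks and the MDA-MB-453 lists 36148 and 37813, covering 96.4, 92.1, 70.5 and 72.1 Mb. No read counts were at hand, which leaves the depth behind each list unknown, and signal at a place without a peak may have stayed just below what the caller required. The SKBR3 lists were longer but weaker. Their median fold enrichment was 3.61 and 4.26 against 5.04 and 4.88 in MDA-MB-453, and 39.4% and 52.6% of their peaks had a q-value under 1e-05 against 63.8% and 59.8%. The lists of a line covered similar ground, with a Jaccard index (the bp 2 lists share, over the bp that at least 1 of them covers) of 0.678 in SKBR3 and 0.801 in MDA-MB-453, against 0.309 to 0.340 between lines. The number of protein-coding genes with a promoter peak was close in the lines, 11944 ± 146 in SKBR3 and 11924.5 ± 44.5 in MDA-MB-453 (SD, n = 2, two-sided exact permutation test, p = 1). With 2 libraries per line the smallest p this test allows is 0.3333, which was the value for the number of peaks, the covered length and the share of peaks near a transcription start site (TSS), meaning within 1 kb.

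All 4 lists had promoter peaks at KRT8, KRT18, KRT19 and EPCAM, markers of the labelled breast epithelium. Of the markers of other cell types, 9 of 10 leukocyte genes, 4 of 6 endothelial genes, 4 of 7 fibroblast genes and 4 of 7 myoepithelial genes had no promoter peak in any list, PTPRC, PECAM1, DCN and KRT14 among them. CSF1R, PDGFRB and FAP had peaks in SKBR3 lists only and TP63 in MDA-MB-453 lists only. The fibroblast collagen gene COL1A1, the endothelial genes CDH5 and VWF and the myoepithelial gene MYLK had promoter peaks in all lists. At COL1A1 the values were 9.36- and 10.01-fold in SKBR3 and 35.2- and 34.7-fold in MDA-MB-453, and at CDH5 they were 11.1-, 16.6-, 14.9- and 15.3-fold in the same order.

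A distal place that separated the lines is shown by a stretch of 200 bases near the kinase gene PIM3 (hg38 chr22:49948933-49949132), from a region that ranked among the highest distal regions of MDA-MB-453. Among the stretches tried that lie wholly inside peaks of both MDA-MB-453 lists, it was chosen for having the most motif matches. None of its bases lay in a peak of SKBR3. Capitals mark matches to the motifs searched below, on either strand, here 3 TFAP2 matches, of which the first 2 overlap. Over all separated distal regions, TFAP2 matches were less frequent in MDA-MB-453 (13.3%) than in SKBR3 (18.1%) or in all lists (17.4%). The stretch is written 5′ to 3′ on the plus strand of hg38.
MDA-MB-453 region near PIM3: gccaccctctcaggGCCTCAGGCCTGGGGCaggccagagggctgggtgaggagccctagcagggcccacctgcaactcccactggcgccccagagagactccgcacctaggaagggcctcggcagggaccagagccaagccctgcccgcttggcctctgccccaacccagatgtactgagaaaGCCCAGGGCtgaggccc

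Promoters with peaks in a single line are shown by 4 RefSeq sequences (GRCh38.p14, 250 bases before to 50 after the start, plus strand). SERHL2 (chr22:42553706-42554005) and the hepatocyte growth factor receptor gene MET (chr7:116671946-116672245) had promoter peaks in SKBR3 lists only, and the prolactin-induced protein gene PIP (chr7:143131827-143132126) and KCNK1 (chr1:233613856-233614155) in MDA-MB-453 lists only. Peaks of both own lists covered all 300 bases, apart from MET, where a peak of SKBR3 replicate 1 covered 298. Capitals again mark motif matches, a TFAP2 match in SERHL2 and an AP-1 match in PIP. The MET and KCNK1 windows hold no match to the letters searched.
SERHL2 promoter: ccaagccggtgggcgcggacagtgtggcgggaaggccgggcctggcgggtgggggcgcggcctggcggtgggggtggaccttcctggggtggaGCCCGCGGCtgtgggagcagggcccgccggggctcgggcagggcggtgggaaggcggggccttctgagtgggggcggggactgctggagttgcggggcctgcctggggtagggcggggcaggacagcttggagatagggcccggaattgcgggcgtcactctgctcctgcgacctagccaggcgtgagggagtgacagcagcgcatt
MET promoter: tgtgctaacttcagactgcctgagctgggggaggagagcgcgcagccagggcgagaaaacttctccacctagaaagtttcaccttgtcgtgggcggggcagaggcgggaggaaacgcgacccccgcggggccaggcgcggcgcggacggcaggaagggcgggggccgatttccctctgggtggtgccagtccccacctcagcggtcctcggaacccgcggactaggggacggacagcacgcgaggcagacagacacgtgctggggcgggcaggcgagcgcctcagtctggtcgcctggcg
PIP promoter: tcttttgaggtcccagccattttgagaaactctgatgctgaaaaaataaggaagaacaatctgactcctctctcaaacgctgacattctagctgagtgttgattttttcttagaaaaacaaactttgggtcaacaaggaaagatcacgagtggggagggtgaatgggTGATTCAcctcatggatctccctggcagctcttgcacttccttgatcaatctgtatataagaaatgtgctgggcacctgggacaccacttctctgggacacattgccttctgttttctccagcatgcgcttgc
KCNK1 promoter: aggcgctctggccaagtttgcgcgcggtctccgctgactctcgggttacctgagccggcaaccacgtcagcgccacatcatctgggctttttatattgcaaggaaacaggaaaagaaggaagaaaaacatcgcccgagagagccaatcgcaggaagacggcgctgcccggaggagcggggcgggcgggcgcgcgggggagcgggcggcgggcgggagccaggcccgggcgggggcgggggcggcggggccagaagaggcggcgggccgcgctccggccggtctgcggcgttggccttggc

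The 4 lists were merged into 65093 regions on chromosomes 1 to 22 and X, joining peaks that overlapped by at least 1 bp. Of these, 13987 lay in both SKBR3 lists and in neither MDA-MB-453 list (21.5%), and 10581 showed the reverse pattern (16.3%). A further 19175 regions lay in all 4 lists (29.5%), and 21350 followed any other pattern, mostly the 17239 regions found in a single list. The separated regions were mainly distal. In SKBR3, 10814 of them (16.6% of all regions) lay over 1 kb from any TSS and 3173 (4.87%) within 1 kb of one, and in MDA-MB-453 these numbers were 8767 (13.5%) and 1814 (2.79%). Regions in all lists were mainly promoters, 11445 of 19175 (59.7%). The separated regions were also narrower, with a median width of 1539 bp in SKBR3 and 1230 bp in MDA-MB-453 against 2873 bp for regions in all lists. The order of the lines depended on the lists. With q under 1e-05 the numbers were 4846 for SKBR3 and 6968 for MDA-MB-453, and with lists of equal size 10428 and 11401. Of the libraries left out in turn, SKBR3 replicate 2 moved the SKBR3 number most, to 22837 without it.

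**Figure D1:**
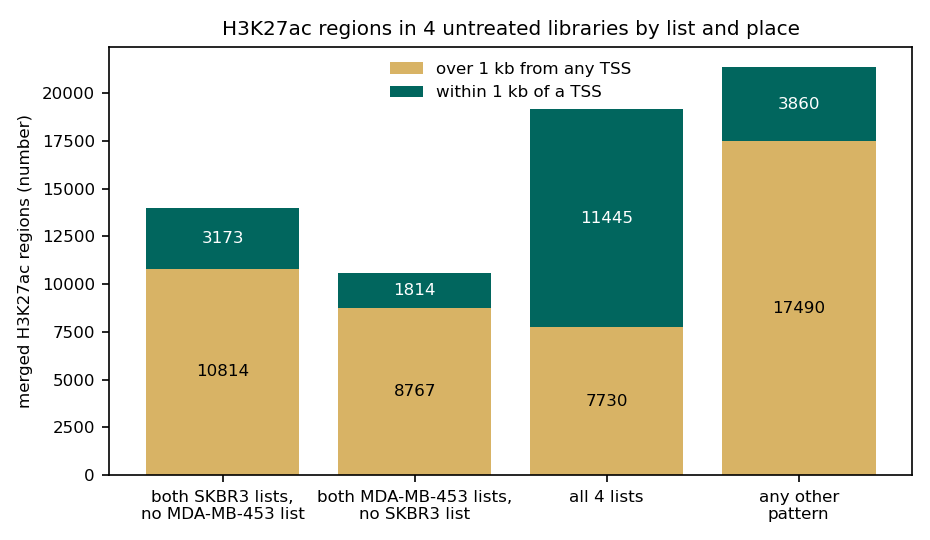
Number of merged H3K27ac regions (vertical axis) by the untreated lists that held them (horizontal axis), each bar split into regions over 1 kb from any TSS and within 1 kb of a TSS. Of the regions in both SKBR3 lists alone 10814 were distal, of those in both MDA-MB-453 lists alone 8767, and of those in all 4 lists 7730 against 11445 at promoters.

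The separation was read again in the TWEAK-treated libraries, which the call had not used. Of the SKBR3 regions, 80.6% lay in both TWEAK lists of SKBR3 and in neither of MDA-MB-453, and of the MDA-MB-453 regions 76.2% showed the matching pattern. For strong regions, with a −log10 q above the 50th percentile of each own list, the shares were 94.2% and 84.4%. The ratio of SKBR3 to MDA-MB-453 regions varied between chromosomes, from 0.473 on X to 2.72 on 17 and 2.79 on 19.

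At the level of genes, a promoter peak was a peak within 1 kb of the TSS of any transcript. Of 19970 protein-coding genes, 828 had one in both SKBR3 lists alone (4.15%), 778 in both MDA-MB-453 lists alone (3.90%), 10601 in all lists (53.1%) and 6706 in none (33.6%). Fewer than 50% of the genes with a separated promoter had a separated distal region of their own line nearby. Of the SKBR3 genes, 47.3% were the nearest gene of at least 1 SKBR3 distal region and 14.7% of an MDA-MB-453 distal region. For the MDA-MB-453 genes these shares were 18.5% and 40.1%, and for genes in all lists 30.9% and 19.3%. In the TWEAK lists, 645 of the 828 and 644 of the 778 kept their call. At q under 1e-05 the numbers of genes were 598 in SKBR3 and 1124 in MDA-MB-453, with 375 of the 828 and 477 of the 778 still called. Among 18756 long non-coding RNA genes, 882 promoters (4.70%) were separated towards SKBR3 and 604 (3.22%) towards MDA-MB-453.

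The separated promoters differed in sequence from those in all lists. In the 300 bases around the gene's 5′ end, 39.3% of SKBR3 promoters and 56.9% of MDA-MB-453 promoters were CpG rich (GC above 50% and an observed over expected CpG ratio above 0.6), against 73.1% in all lists, 28.8% in none and 55.1% over all protein-coding genes. CpG-rich promoters are typical of widely expressed genes and CpG-poor ones of tissue-restricted genes. The AP-1 letters TGANTCA occurred in 92 of the 828 SKBR3 promoters (11.1%) and in 45 of the 778 MDA-MB-453 promoters (5.78%). They occurred in 4.65% of those in all lists, 8.48% of those in none and 6.38% of all. The ETS letters CCGGAAGT, which are common in promoters of housekeeping genes, occurred in 1.33%, 2.57%, 8.68%, 0.761% and 5.11% of the same sets. These shares are descriptions, since a match need not be a bound site and genes are not replicates. A gene's peak may also lie at another of its transcript starts, so the window at the 5′ end need not hold it.

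To place the separation in known pathways, 22 gene lists with 331 genes in all were examined. Of these genes, 22 had a promoter peak in SKBR3 lists alone (6.65%) and 22 in MDA-MB-453 lists alone (6.65%), against 4.15% and 3.90% of all protein-coding genes. A further 177 had one in all lists, 89 in none and 21 in another pattern. Of the 22 genes of SKBR3, 18 kept their call in the TWEAK lists, with EGFR, MMP2, ITGB8 and PLIN2 as the exceptions. Of the 22 genes of MDA-MB-453, 16 kept it, and CLDN8, FOSL1, ESRRG, HLA-C and TP63 were among those that did not. In the following, a promoter value is the highest fold enrichment of a peak within 1 kb of a TSS, given for replicates 1 and 2 of the line that had a peak.

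**Figure D2:**
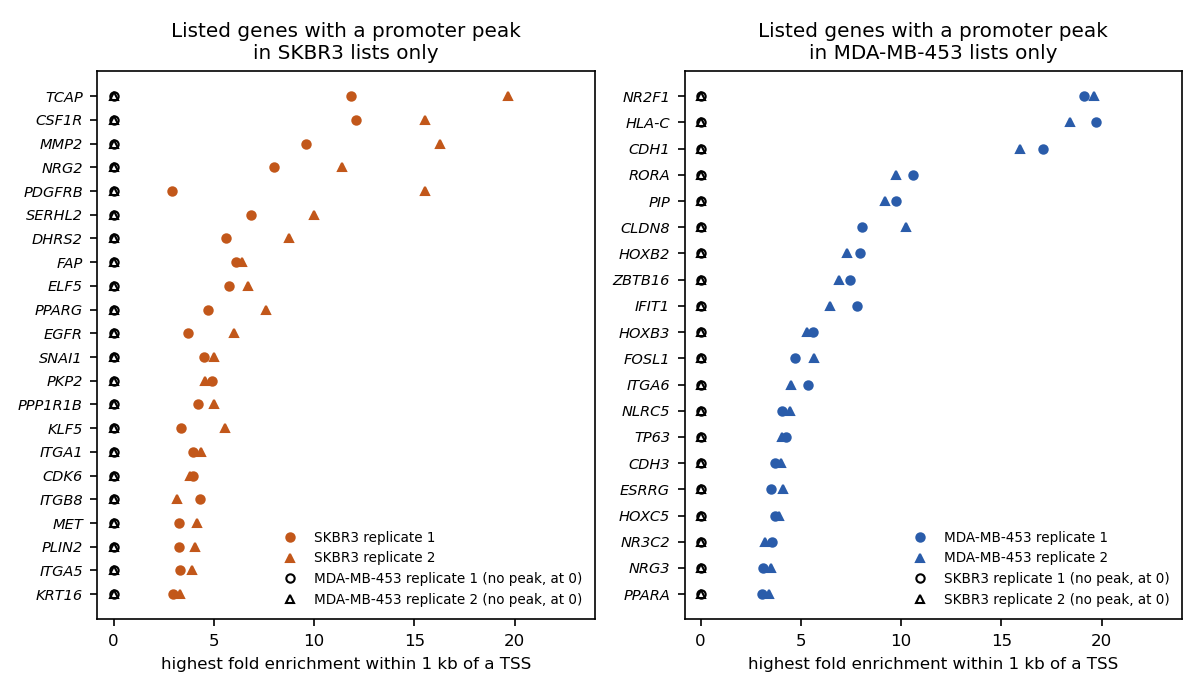
Highest fold enrichment of a peak within 1 kb of a TSS (horizontal axis) in each of the 4 untreated libraries for the listed genes (vertical axis) whose promoter peak was found in 1 line only, with open symbols at 0 where a list held no peak. The SKBR3 values run from 2.93 to 19.7 and the MDA-MB-453 values from 3.04 to 19.7, and PDGFRB shows the widest gap between replicates, 2.93 and 15.5.

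The transcription factors of luminal breast cells were largely shared. Of 20, 16 had promoter peaks in all lists, against 53.1% of all protein-coding genes, among them FOXA1, GATA3, SPDEF and XBP1. ELF5, a factor of the luminal progenitor and alveolar lineage, had promoter peaks in SKBR3 alone, of 5.76- and 6.72-fold. These lay inside the gene, 10.9 to 12.1 kb and 10.7 to 12.2 kb from its 5′ end, near another transcript start. No peak of any list covered the 5′ end itself. KLF5, a Krüppel-like factor of proliferating epithelium, also had promoter peaks in SKBR3 alone, with 3.34- and 5.56-fold. The progesterone receptor gene PGR had no promoter peak in any list, and the oestrogen receptor gene ESR1 had a single one of 3.72-fold, in MDA-MB-453 replicate 1. No listed luminal factor had a promoter peak in MDA-MB-453 alone. The luminal keratins KRT7, KRT8, KRT18 and KRT19 had promoter peaks in all lists, and of 11 basal and other keratins KRT5, KRT14, KRT17, KRT6A, KRT6B and KRT81 had none in any, with KRT16 in SKBR3 alone at 2.95- and 3.30-fold. The KLF5 and KRT16 calls were lost at q under 1e-05.

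Apocrine genes were divided between the lines, 4 of 16 with promoter peaks in MDA-MB-453 alone and 2 in SKBR3 alone. Over all protein-coding genes these shares were 3.90% and 4.15%. PIP, a secreted apocrine protein, had 9.74- and 9.18-fold peaks, CLDN8, a tight junction claudin, 8.05- and 10.3-fold, and ZBTB16, a zinc finger repressor, 7.44- and 6.88-fold, all in MDA-MB-453. Neither untreated SKBR3 list held a promoter peak at these genes. SERHL2, a serine hydrolase-like gene, had peaks of 6.86- and 9.98-fold in SKBR3 alone, and DHRS2, a dehydrogenase/reductase, 5.63- and 8.73-fold. SERHL2 has a near-identical copy, SERHL, so the placing of reads there is uncertain. GGT1, FKBP5, TMPRSS2, ALDH1A3, ACSM1 and CRAT had promoter peaks in all lists and KLK3 in none. AZGP1 had peaks in both MDA-MB-453 lists and in SKBR3 replicate 1, and APOD in SKBR3 replicate 1 alone. The MDA-MB-453 call of PIP and ZBTB16 was lost with a window of 2.5 kb, where another SKBR3 peak was counted.

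Nuclear receptors were unevenly divided, with 5 of 24 promoters in MDA-MB-453 alone and 1 in SKBR3 alone, against 3.90% and 4.15% of all protein-coding genes. The SKBR3 count was thus near its share. NR2F1, an orphan receptor of the COUP family, had the strongest of them, with 19.1- and 19.6-fold peaks in MDA-MB-453. RORA, a circadian orphan receptor, had 10.6- and 9.73-fold peaks, ESRRG, an oestrogen-related receptor, 3.52- and 4.13-fold, NR3C2, the mineralocorticoid receptor, 3.58- and 3.19-fold, and PPARA, a regulator of fatty acid oxidation, 3.04- and 3.39-fold. From 100 kb upstream to 200 kb downstream of the 5′ end of RORA, the SKBR3 lists held 0 and 1 peaks and the MDA-MB-453 lists 10 and 9. PPARG, the regulator of fat cell differentiation, had 4.69- and 7.60-fold peaks in SKBR3 alone. The calls of NR3C2 and PPARA were lost at q under 1e-05, and that of RORA with a window of 2.5 kb.

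Among the ERBB receptors, ERBB2, the gene of HER2, and ERBB3 had promoter peaks in all lists, ERBB4 had none, and EGFR, the gene of the epidermal growth factor receptor, separated the lines. Its promoter peak was 3.74- and 5.99-fold in SKBR3, and from 100 kb upstream to 200 kb downstream of its 5′ end the SKBR3 lists held 16 and 20 peaks and both MDA-MB-453 lists 0. The highest was 8.34- and 15.9-fold and lay upstream of the gene. EGFR was also the nearest gene of 14 distal regions of SKBR3 and of 0 of MDA-MB-453. The EGFR promoter peak was not called at q under 1e-05, nor with the TWEAK lists added. Leaving out a library cannot undo such a call. Of the ligands, NRG2 had promoter peaks in SKBR3 alone at 8.00- and 11.4-fold, NRG3 in MDA-MB-453 alone at 3.13- and 3.51-fold, and AREG and BTC in all lists. EREG, HBEGF, NRG1 and NRG4 had none. EGF had peaks in both SKBR3 lists and MDA-MB-453 replicate 1, and TGFA in MDA-MB-453 replicate 1 alone. The NRG3 call was lost at q under 1e-05 and with a window of 2.5 kb, and the NRG2 call with a window of 500 bp. ERBB4 and NRG3 had no or weak promoter peaks and yet were the nearest genes of 21 and 15 distal regions of MDA-MB-453.

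**Figure D3:**
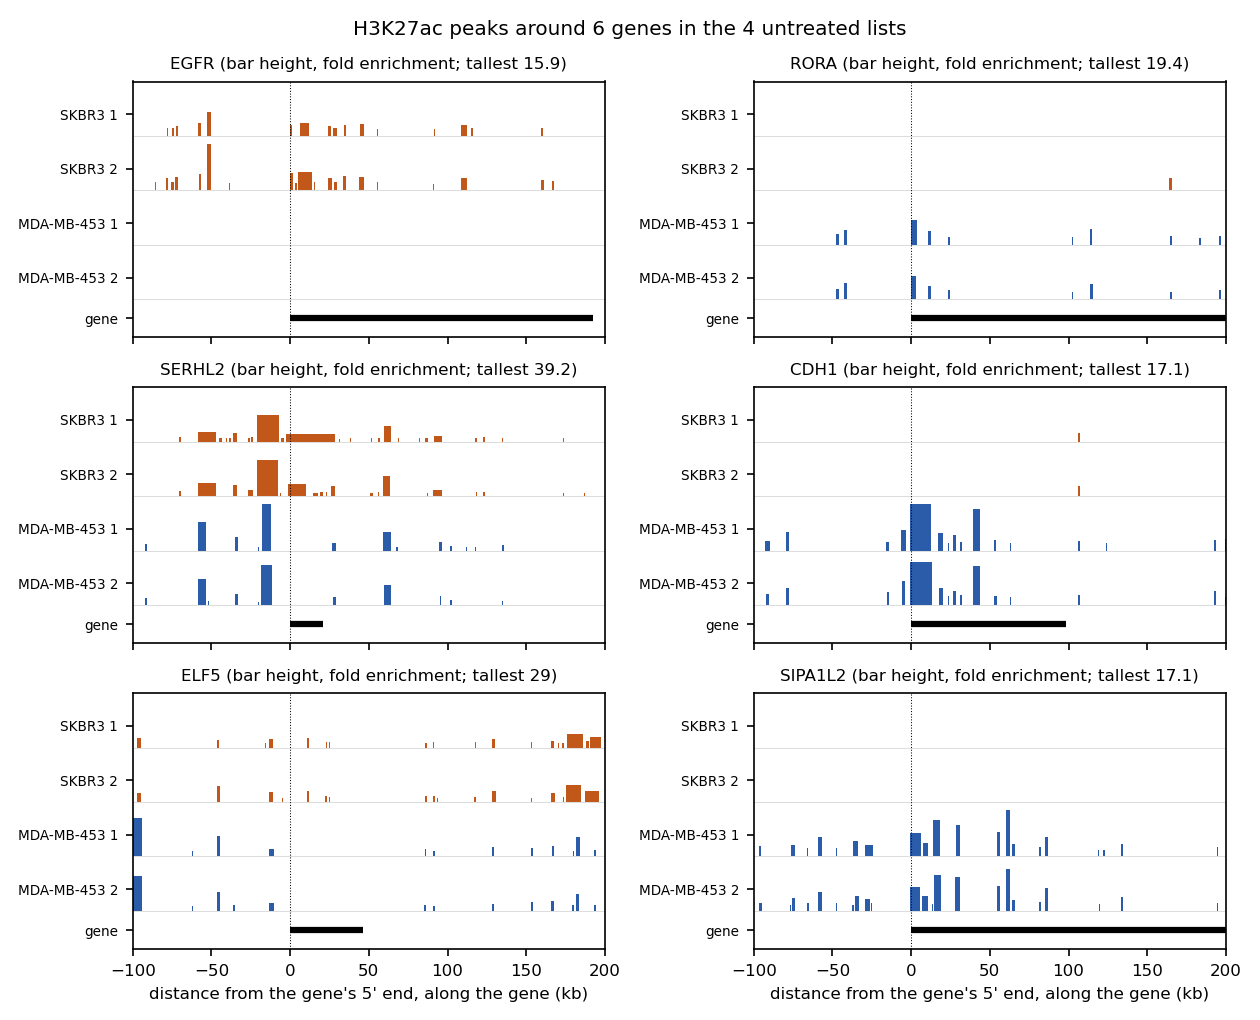
Peaks of the 4 untreated lists (rows) by distance in kb from the gene's 5′ end (horizontal axis) around 6 genes, with bar height proportional to fold enrichment within a panel and the gene drawn as a black bar. EGFR had 16 and 20 peaks in SKBR3 and 0 in MDA-MB-453, SIPA1L2 had 0 in SKBR3 and 20 and 23 in MDA-MB-453, and ELF5 and SERHL2 had peaks of both lines nearby.

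Of the genes beside ERBB2 on 17q12, 6 of 11 had promoter peaks in all lists, against 53.1% of all protein-coding genes. TCAP, the muscle protein telethonin, had promoter peaks of 11.9- and 19.7-fold in SKBR3 alone, and PPP1R1B, a phosphatase inhibitor, 4.21- and 5.02-fold. The TCAP peaks belong to a region that is also occupied in MDA-MB-453, and its call was lost with a window of 2.5 kb. Of 18 other receptor tyrosine kinases, MET had promoter peaks in SKBR3 alone, of 3.26- and 4.16-fold, as did PDGFRB, of 2.93- and 15.5-fold. At the neighbouring CSF1R, the macrophage growth factor receptor gene, the values were 12.1- and 15.5-fold, so that both genes had the same value in replicate 2 and not in replicate 1. The MET and PDGFRB calls were lost at q under 1e-05.

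Epithelial junction genes were mostly shared, 19 of 23 having promoter peaks in all lists, against 53.1% of all protein-coding genes. CDH1, the gene of the adherens junction protein E-cadherin, had peaks of 17.1- and 15.9-fold in MDA-MB-453 and none in SKBR3. In the window around CDH1, the SKBR3 lists held 1 peak each, of 3.05- and 3.88-fold, and the MDA-MB-453 lists 16 and 15. No SKBR3 peak lay within the gene, against 8 and 8 in MDA-MB-453. The neighbouring CDH3, the gene of P-cadherin, also had promoter peaks in MDA-MB-453 alone, of 3.69- and 4.03-fold, and no SKBR3 peak in its body. The CDH3 call was lost at q under 1e-05. Whether the DNA of CDH1 and CDH3 is intact in SKBR3 was not tested. PKP2, a desmosomal plakophilin, had peaks in SKBR3 alone, of 4.91- and 4.57-fold, and CLDN1 had none in any list.

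Of 18 genes of the mesenchymal transition, 2 had promoter peaks in SKBR3 alone and none in MDA-MB-453 alone, against 4.15% and 3.90% of all protein-coding genes. They were MMP2, a matrix metalloproteinase, with 9.62- and 16.3-fold, and SNAI1, a repressor of CDH1, with 4.49- and 5.01-fold. The MMP2 call was lost with a window of 2.5 kb. CDH2, TWIST1, CD44, SPARC and 4 others had none in any list, and VIM, FN1 and ZEB2 were among 6 with another pattern. FAP, a protease of activated fibroblasts, had peaks of 6.12- and 6.42-fold in SKBR3. Of 13 integrins, ITGA1, ITGA5 and ITGB8 had promoter peaks in SKBR3 alone, between 3.15- and 4.34-fold, and the laminin receptor subunit ITGA6 in MDA-MB-453 alone, at 5.37- and 4.50-fold. The SKBR3 integrin calls were lost at q under 1e-05, whereas that of ITGA6 was not.

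Of 18 MHC class I and interferon genes, 4 had promoter peaks in MDA-MB-453 alone, 12 in all lists and none in SKBR3 alone. Over all protein-coding genes these shares were 3.90%, 53.1% and 4.15%. Of the 4, HLA-C, an antigen-presenting class I molecule, had peaks of 19.7- and 18.4-fold and its transactivator NLRC5 4.07- and 4.48-fold. IFIT1, an interferon-induced inhibitor of viral RNA, had 7.82- and 6.43-fold peaks. HLA-B had no promoter peak in any list. The class I genes are near-identical and polymorphic, so the placing of reads among them is uncertain, and HLA-C did not keep its call in the TWEAK lists. The NLRC5 call was lost at q under 1e-05 and with a window of 2.5 kb. Of 39 HOX genes, 30 had no promoter peak in any list, against 33.6% of all protein-coding genes, and 6 had one in all lists. HOXB2, HOXB3 and HOXC5 had one in MDA-MB-453 alone, at 7.93- and 7.30-fold, 5.59- and 5.30-fold and 3.72- and 3.91-fold. HOX genes set position along the body axis and keep that state in adult tissue.

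The remaining lists held single separated promoters. FOSL1, an AP-1 subunit, had peaks of 4.70- and 5.66-fold in MDA-MB-453 alone, and 9 of 12 AP-1 genes had peaks in all lists. TP63, a factor of basal cells, had 4.27- and 4.06-fold peaks in MDA-MB-453 alone, a call lost with a window of 500 bp. CDK6, a G1 kinase, had 3.96- and 3.81-fold peaks and PLIN2, a lipid droplet coat protein, 3.27- and 4.05-fold peaks in SKBR3 alone. The CDK6 and PLIN2 calls were lost at q under 1e-05. Of the 17 listed genes of the Fn14 and NF-κB pathway none was separated and 15 had promoter peaks in all lists. TRAF5, a TNF receptor adaptor that the list does not hold and that was chosen after its values were seen, had peaks of 18.8- and 18.4-fold in MDA-MB-453 alone. Of 14 housekeeping genes, 13 had a promoter peak in all lists. Of all protein-coding genes, 53.1% had one in all lists, 4.15% in SKBR3 alone and 3.90% in MDA-MB-453 alone.

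Among all separated promoters, those ranked highest within their own lists were mostly outside these pathways. In SKBR3 they were TCAP, CACNB1, a calcium channel subunit, ATP9A, a lipid flippase, ABHD16B, CPT1B, which imports fatty acids into mitochondria, SLC44A3, a choline transporter-like protein, MESP1, a mesoderm factor, and ADAMTSL4. Their values lay between 7.27-fold, at CACNB1 in replicate 1, and 30.4-fold, at MESP1 in replicate 2. SLC44A3 had peaks of 19.2- and 22.8-fold and CPT1B of 18.9- and 21.2-fold, and both genes kept their call in the TWEAK lists. In MDA-MB-453 they were KCNK1, with 44.3-fold in both lists, TRIM39-RPP21, MYBPHL, ANKRD30A, the gene of the breast antigen NY-BR-1, CCL27, a skin chemokine, FMO1, a flavin monooxygenase, CACNG1 and CCDC122. ANKRD30A had peaks of 34.2- and 27.5-fold and was the nearest gene of 13 distal regions of MDA-MB-453. TRIM39-RPP21 is a readthrough transcript whose neighbour TRIM39 had promoter peaks in all lists, and CCDC122 shares its peak with LACC1. With a window of 2.5 kb, TCAP, CACNB1, ABHD16B and ADAMTSL4 of SKBR3 and TRIM39-RPP21, MYBPHL, CCL27 and CACNG1 of MDA-MB-453 lost their call. With the TWEAK lists added, CACNB1, KCNK1, CCL27 and CCDC122 lost it.

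The separated distal regions of the lines lay in different settings. By the midpoint, 54.0% of the SKBR3 regions were intronic and 42.3% outside protein-coding genes, against 44.8% and 52.8% in MDA-MB-453 and 50.3% and 47.5% of distal regions in all lists. The median distance to the nearest protein-coding TSS was 19.0 kb in SKBR3, 45.4 kb in MDA-MB-453 and 24.0 kb in all lists. Their GC content was 46.4% ± 7.57, 41.7% ± 6.69 and 45.2% ± 7.57 (SD over regions). The regions of MDA-MB-453 were thus farther from genes and poorer in GC than those of SKBR3 or those shared, a description with no test because regions of a library are not replicates. Strong regions made up 28.6% of the SKBR3 and 21.4% of the MDA-MB-453 regions. Without SKBR3 replicate 1 or 2 the SKBR3 number rose to 16259 or 18105, since then a single list decided.

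The distal regions ranked highest in SKBR3 included those 176 kb from TFAP2C, the gene of AP-2γ (22.9- and 38.8-fold), in an intron of the calmodulin-binding activator gene CAMTA1 (chr1:7487515-7492882, 29.7- and 34.9-fold), in an intron of PTPRC (chr1:198653669-198660561, 24.4- and 25.9-fold) and in an intron of SNTB1 (6.10- and 8.71-fold). PTPRC encodes the leukocyte antigen CD45, and its promoter had no peak in any list. In MDA-MB-453 they lay 50.4 kb from KCNK1 (44.9- and 40.4-fold), 11.03 kb from PIM3 (chr22:49943943-49955540, 31.1- and 37.1-fold, the region of the stretch printed above), 4.07 kb from FMO1 (chr1:171283819-171288830, 32.1- and 28.5-fold), 141 kb from SIPA1L2 (chr1:232259821-232263137, 29.3- and 28.7-fold) and in an intron of the adenylate cyclase gene ADCY2 (chr5:7646429-7664283, 21.3- and 31.3-fold). The 5 highest of each line lay in both TWEAK lists of their line, and the one near KCNK1 also lay in a TWEAK list of SKBR3. KCNK1 and FMO1 were also among the genes whose separated promoters ranked highest in MDA-MB-453.

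Distal regions gathered at certain genes. SKBR3 regions had 5317 nearest genes, 404 of them with 5 or more regions, and MDA-MB-453 regions 3873 and 432. In SKBR3, XYLT1, a xylosyltransferase that starts proteoglycan chains, was nearest to 25 SKBR3 regions and 1 of MDA-MB-453, and CAMTA1 to 19 and 2. PREX1 (18), TNS3 (17), ZMIZ1 (17), GALNT17, KLF6 and PDE4D (15 each) followed. In MDA-MB-453, SIPA1L2, a GTPase-activating protein, was nearest to 29 MDA-MB-453 regions and 0 of SKBR3, and no SKBR3 peak lay in its window, against 20 and 23 in MDA-MB-453. ERBB4 (21), the endocytic receptor gene LRP1B (20), DHX35 (19), and GLI3, KAZN and RORA (18 each) followed. Many distal regions did not go with a separated promoter. XYLT1 and GALNT17 had promoter peaks in SKBR3 alone and SIPA1L2, LRP1B and RORA in MDA-MB-453 alone, but CAMTA1, KLF6, DHX35 and GLI3 had them in all lists and ERBB4 in none. Long genes and gene deserts gather more regions by their length alone, which these counts do not correct.

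**Figure D4:**
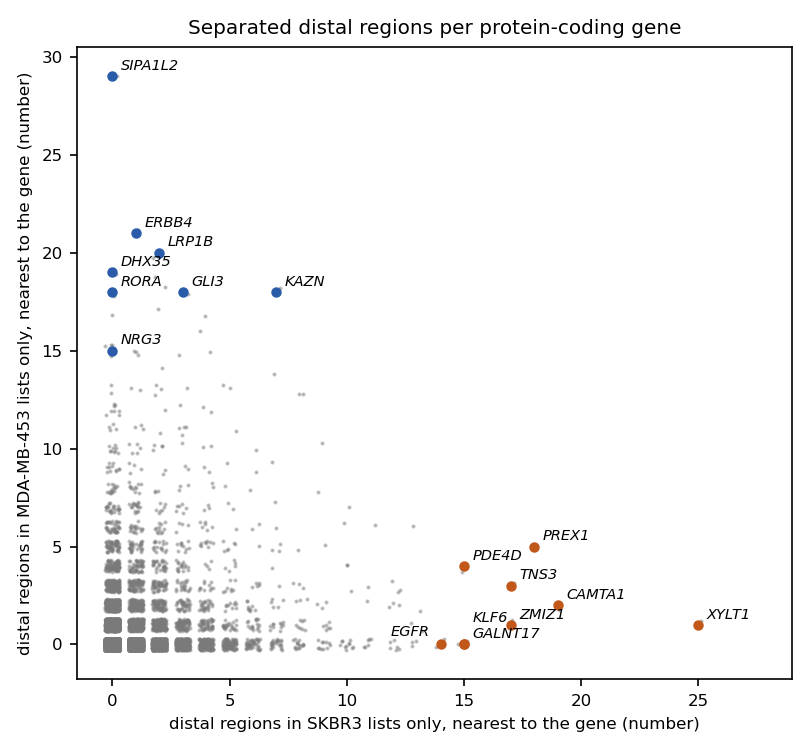
For each protein-coding gene (points), the number of distal regions found in SKBR3 lists only (horizontal axis) and in MDA-MB-453 lists only (vertical axis) for which it was the nearest gene, with small offsets to part equal values and coloured points for named genes. XYLT1 stands at 25 against 1, EGFR at 14 against 0, SIPA1L2 at 0 against 29 and ERBB4 at 1 against 21.

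Letters of 11 transcription factor motifs were looked for, on either strand, within 500 bp centred on the midpoint of each distal region. The forkhead letters TGTTTAC occurred in 17.4% of MDA-MB-453 regions (95% Wilson interval 16.6 to 18.2), 10.7% of SKBR3 regions (10.1 to 11.3) and 13.3% of distal regions in all lists. The GATA letters AGATAAG occurred in 9.71% (9.10 to 10.3), 4.86% (4.47 to 5.29) and 6.003%, the CEBP letters TTGCNNAA in 33.8%, 24.8% and 27.9%, and the steroid receptor palindrome core ACANNNTGT in 17.9%, 14.2% and 15.4%. These 4 motifs and the RUNX letters TGTGGTT (11.2%, 9.74% and 10.1%) had their highest share in MDA-MB-453 regions.

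The TEAD letters ACATTCC showed the reverse order, with 12.3% of SKBR3 regions (11.7 to 12.9), 8.12% of MDA-MB-453 regions (7.57 to 8.71) and 9.91% in all lists. So did the TFAP2 letters GCCNNNGGC, with 18.1%, 13.3% and 17.4%, and the NF-κB letters GGGNNTTCC, with 7.74%, 4.92% and 6.35%. For the AP-1 letters TGANTCA the shares were 23.9%, 21.6% and 23.3%, for the GRHL letters AACCNGTT 5.77%, 5.62% and 6.29%, and for the ETS letters 0.573%, 0.217% and 0.556%. In strong regions the forkhead, GATA and TEAD shares were 9.95%, 4.56% and 12.6% in SKBR3 and 15.6%, 9.45% and 7.53% in MDA-MB-453. The regions of MDA-MB-453 were also lower in GC, at 41.7% against 46.4%. The part of base composition in these shares was not tested. Intervals cover counting error only, and matches of different motifs may overlap.

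Super-enhancer-like regions, long stretches of clustered distal peaks, numbered 917 and 971 in the SKBR3 lists and 853 and 850 in the MDA-MB-453 lists, on average 944 ± 38.2 against 851.5 ± 2.12 (SD, n = 2, two-sided exact permutation test, p = 0.3333). The difference turned to −67.5 when peaks were stitched across 5 kb, a shorter distance than that used here. Merged, they made 1563 regions, of which 430 were found in SKBR3 alone (27.5%), 392 in MDA-MB-453 alone (25.1%) and 305 in all lists. Few of them were empty in the other line, as 19 of the 430 (4.42%) and 27 of the 392 (6.89%) held no peak of the other line.

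The highest-ranked of them in SKBR3 lay near RIPOR2 (chr6:25093269-25223682), over ST3GAL4 and its neighbours (chr11:126332158-126435151), in the transcription factor gene GTF2IRD1 (chr7:74417073-74639193), in the Ras regulator gene RASA3 (chr13:113997101-114105531) and over SPNS2 (chr17:4472139-4557987). In MDA-MB-453 they lay in the calcium channel gene ITPR1 (chr3:4678726-4788481), in TPRG1 (chr3:189290087-189336021), in ANKRD30A (chr10:37145383-37245878), in the transcription factor gene NFIB (chr9:14304000-14353683) and at MPHOSPH6 (chr16:82134051-82171761). Of these 10, the ANKRD30A region alone held 0 peaks of the other line, against 11 and 8 of its own. The RIPOR2 region held 13 and 13 SKBR3 peaks and 5 and 5 of MDA-MB-453. In 5 of the 10, about ST3GAL4, SPNS2, ITPR1, TPRG1 and MPHOSPH6, the line with the fewer peaks carried the call. The ITPR1 region, for example, held 6 and 6 MDA-MB-453 peaks and 9 and 8 of SKBR3.

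Regions present in all 4 lists were compared by their highest fold enrichment, quantile normalised on the log2 scale, with limma and Benjamini-Hochberg adjustment. Of 19175 regions, 9844 differed at adjusted p under 0.05 (51.3%), 4858 higher in SKBR3 (25.3%) and 4986 higher in MDA-MB-453 (26.0%). Promoters and distal regions were both affected, 5581 of 11445 and 4263 of 7730. Of the regions called, 3242 differed by over 1 on the log2 scale. Quantile normalisation sets the distributions of the libraries equal, so a difference here is relative to the other regions. Without normalisation the median difference was −0.31, and 2168 regions were higher in SKBR3 against 7144 in MDA-MB-453. Leaving out MDA-MB-453 replicate 1 or 2 lowered the number called to 6336 or 6351.

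By gene, 10527 protein-coding promoters lay in such regions, 2243 higher in SKBR3 (21.3%) and 2606 higher in MDA-MB-453 (24.8%). Luminal transcription factors that were present in all lists leaned towards MDA-MB-453, 7 of 16 being higher there and 1 in SKBR3. GATA3 had 4.53- and 5.62-fold enrichment in SKBR3 and 23.8- and 21.4-fold in MDA-MB-453, a normalised log2 difference (SKBR3 minus MDA-MB-453) of −1.77 ± 0.13 (SE, limma, adjusted p = 0.000117). FOXA1 had 18.5- and 21.3-fold against 49.4- and 43.5-fold, a difference of −0.72 ± 0.13 (adjusted p = 0.00367). The replicates of the lines did not overlap at either gene. TFAP2B, GRHL1, TRPS1, XBP1 and EHF were also higher in MDA-MB-453, by −1.52, −1.44, −0.73, −0.59 and −0.56, where the difference of GRHL1 turned to 0.14 when peaks were summed by width and fold, and XBP1 and EHF were not called without either MDA-MB-453 library. TFAP2C was higher in SKBR3 by 0.64 ± 0.13 (limma, adjusted p = 0.00554), with 14.1- and 18.4-fold against 14.4- and 14.4-fold before normalisation, and was not called without normalisation or without MDA-MB-453 replicate 1. SPDEF, TFAP2A, TBX3, MYB, ELF3, GRHL2, OVOL1 and OVOL2 were not called, with differences between −0.33 and 0.38.

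Genes of the Fn14 and NF-κB pathway, through which TWEAK signals, leaned the other way, 11 of 15 being higher in SKBR3 and 1 in MDA-MB-453 against 21.3% and 24.8% of all promoters. REL, an NF-κB subunit, had 24.1- and 25.01-fold enrichment in SKBR3 and 4.96- and 5.05-fold in MDA-MB-453, a difference of 2.65 ± 0.14 (SE, limma, adjusted p = 9.35e-05). TNFRSF12A, the gene of Fn14, had 11.985- and 15.3-fold against 10.2- and 9.26-fold, a difference of 0.92 ± 0.13 (limma, adjusted p = 0.00123), in a region that also holds the promoters of CLDN6, HCFC1R1 and THOC6. In both cases all SKBR3 values exceeded all MDA-MB-453 values. The inhibitor TNFAIP3 (1.24), the adaptors TRAF3 (1.17) and TRAF2 (1.01), BCL3 (0.83), NFKBIA (0.72), NFKB1 (0.53), NFKBIE (0.52), RELA (0.51) and NFKB2 (0.44) were also higher in SKBR3, and BIRC2, an inhibitor of the non-canonical branch, was higher in MDA-MB-453, by −0.52. MAP3K14, RELB and BIRC3 were not called. The count depended on scaling, being 9 with median centring, 6 with summed peaks and 4 without normalisation, each with 1 in the other direction, and NFKB1 turned to −0.33 with summed peaks and NFKB2 to −0.01 without normalisation. TNFRSF12A was not called without normalisation (0.48, limma, adjusted p = 0.0708), and of the 11 genes REL and TRAF2 alone kept the call under all 3 scalings.

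**Figure D5:**
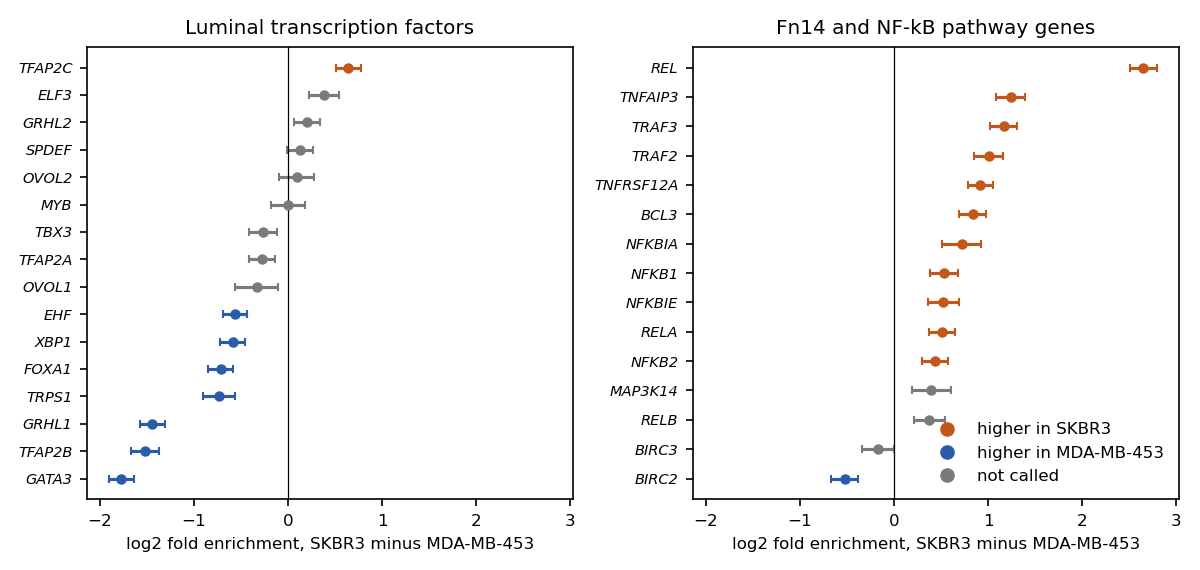
Log2 difference in quantile-normalised fold enrichment (SKBR3 minus MDA-MB-453, horizontal axis) at promoter regions in all 4 lists for luminal transcription factors and for Fn14 and NF-κB pathway genes (vertical axes), with points for the difference, bars for its SE and colours for the limma call at adjusted p under 0.05. GATA3 lies lowest at −1.77 and REL highest at 2.65, the sign of GRHL1 turns with summed peaks, that of NFKB1 with summed peaks and that of NFKB2 without normalisation.

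In the ERBB list, 2 of 4 shared promoters were higher in MDA-MB-453 and 0 in SKBR3, against 24.8% and 21.3% of all promoters. With summed peaks 1 was called in each direction. The EGFR ligand AREG had 2.95- and 4.06-fold enrichment in SKBR3 and 20.5- and 20.2-fold in MDA-MB-453, a difference of −2.29 ± 0.15 (SE, limma, adjusted p = 0.000111). The ERBB2 region, which also holds GRB7 and MIEN1, had 13.1- and 31.2-fold against 63.0- and 60.0-fold, a difference of −1.13 ± 0.28 (limma, adjusted p = 0.0118). The SKBR3 replicates differed widely in this region, and the call was lost with summed peaks (−0.16, limma, adjusted p = 0.472). Another region in all lists that holds a start of ERBB2, with STARD3, PGAP3, PNMT and TCAP, was not called (−0.17, limma, adjusted p = 0.418). With summed peaks that region was higher in SKBR3 (1.31, limma, adjusted p = 0.00533), so the direction at ERBB2 depended on the region and the measure. DNA copy number at ERBB2 was not measured, and its part in these ratios was not tested. ERBB3 (−0.44) and BTC (0.22) were not called. Among apocrine genes, FKBP5, a co-chaperone of steroid receptors, was higher in MDA-MB-453 by −1.19 and GGT1 by −1.05, and ALDH1A3 and ACSM1 were higher in SKBR3 by 1.30 and 1.55, with TMPRSS2 (−0.08) and CRAT (−0.45) not called. KRT7 was higher in SKBR3 by 1.09, while KRT8 and KRT18, which share a region, and KRT19 lay between −0.03 and 0.01 and were not called.

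Other lists had calls in 1 direction or were divided. Of 14 nuclear receptors, VDR, the vitamin D receptor (−1.79), THRB (−1.18), NR2F2 (−0.997) and PPARD (−0.65) were higher in MDA-MB-453, near the 24.8% of all promoters, and none in SKBR3, although with summed peaks 5 were called in each direction. Of 15 lipid genes, the desaturase FADS1 (−2.42), the sterol regulator SREBF2 (−1.16), HMGCS1 (−0.89) and FDFT1 (−0.85) were higher in MDA-MB-453, also near that share, and none in SKBR3, against 3 with summed peaks. The SREBF2 call was lost with summed peaks (−0.32, limma, adjusted p = 0.234). Of 19 junction genes, 7 were higher in SKBR3, such as DSP (1.08), and 5 in MDA-MB-453, such as the epithelial splicing factor ESRP1 (−2.18). Over all promoters the shares were 21.3% and 24.8%. The junction counts became 4 and 6 with median centring and 1 and 8 without normalisation. Among 13 housekeeping genes 1 was called in each direction. Of 2 mesenchymal promoters, ZEB1 was higher in MDA-MB-453 and 0 were higher in SKBR3, with the same counts under the other 3 scalings. Of 12 MHC class I and interferon promoters, STAT2 (−0.67) and IRF9 (−0.66), which carry the interferon signal, were higher in MDA-MB-453 and IRF1 (0.54) and the peptide transporter TAP2 (0.62) in SKBR3, TAP2 turning to −0.12 with summed peaks and neither SKBR3 call holding without normalisation. Of 12 cell cycle promoters, CCNE1, the gene of cyclin E1 (1.55), and CDKN2C (0.48) were higher in SKBR3, and RB1 (−0.92), CDKN1B (−0.90) and CDK4 (−0.81) in MDA-MB-453. The cell cycle counts, like those of the MHC class I and interferon list, were near the shares over all promoters. The CDKN2C call was lost with median centring (limma, adjusted p = 0.0885), with summed peaks (0.095) and without normalisation (0.945).

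Over all promoters, the largest differences towards SKBR3 were at CRACDL (3.04), IQSEC1 (3.01), the AP-1 family gene BATF (2.94), LPCAT1 (2.77), MESP2 (2.73), REL, the helix-loop-helix inhibitor ID3 (2.55) and RASA3 (2.48). Those towards MDA-MB-453 were at the nucleoside transporter SLC29A1 (−2.92), LRPPRC (−2.47), FADS1, VPS45 (−2.38), SLFN5 (−2.37), PDZD7 (−2.36), ITPR1 (−2.29) and AREG. At BATF the values were 15.7- and 26.4-fold in SKBR3 and 3.35- and 3.10-fold in MDA-MB-453, and at SLC29A1 3.30- and 3.69-fold against 33.4- and 31.8-fold, so the replicates of the lines were far apart at both (limma, adjusted p = 9.51e-05 and 9.31e-05).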

How the data were processed

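H3K27ac ChIP-seq libraries were grouped by the labels into SKBR3 untreated and MDA-MB-453 untreated (2 each). The authors trimmed reads with Trimmomatic, mapped them to hg38 with Bowtie2, called peaks with MACS2 in each library against the line's input, and took out blacklisted regions using bedtools. Versions and calling options are not given in the sources used here. The deposited lists give each peak's fold enrichment (a ratio to the background) and −log10 q-value. Depth is unknown. The methods state at least 2 biological replicates, and p-values measure only the spread between these libraries.

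Peaks on other sequences (51 to 83 per list) were left out. Genes and TSS came from GENCODE release 44. Fold enrichment was tested with limma 3.58.1 in R 4.3.3 (log2, quantile normalised, Benjamini-Hochberg), and totals with exact permutation tests over 6 assignments. DiffBind, used in the study, needs reads. Super-enhancer-like regions followed ROSE without reads, with stitching at 12.5 kb of peaks reaching beyond 2.5 kb from any TSS and 5 kb of overlap to count as shared. Scripts were tested on simulated data, and lengths and printed promoters were checked against the reference, with 0 mismatches.

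Named were listed genes with a separated promoter, all luminal, apocrine, ERBB and luminal keratin genes, and per line the top 8 promoters, 5 distal regions, 8 nearest genes, 5 super-enhancer-like regions and 8 promoter differences; other genes were named after their values were seen. Some of these genes and sequences are not reported here. These members and gene lists were chosen with earlier results of these data known. Alternatives were q under 1e-05, equal list size, other overlaps, merging and TSS windows, the 8 lists together, other stitching, scalings and variance models, a replicate block and leaving out each library.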

Additional observations from a re-analysis of the deposited data

How the results depend on the processing

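The SKBR3 lists had more but weaker peaks, and results that count weak peaks turned on the threshold. With q under 1e-05, the difference between lines (SKBR3 minus MDA-MB-453) became −2474 for the number of peaks, 3.01 percentage points for the share near a TSS and −888.5 for genes with a promoter peak, and the separated regions fell to 4846 in SKBR3 and 6968 in MDA-MB-453 (distal 3390 and 5023). Of the shared regions, 11380 were then tested and 5448 called, 2704 and 2744 by direction. Stitching across 5 kb turned the difference in super-enhancer-like regions to −67.5. Without normalisation, 2168 shared regions were higher in SKBR3.

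Leaving out 1 library at a time gave differences of 6607.5 to 8272.5 peaks, 20.8 to 25.1 Mb, −2.11 to −1.06 percentage points, −83.5 to 122.5 genes (−12 without MDA-MB-453 replicate 1) and 65.5 to 119.5 super-enhancer-like regions. SKBR3 regions ranged from 14487 to 22837 (distal 11184 to 18105), MDA-MB-453 regions from 11382 to 13432 (9390 to 11305), promoters from 877 to 1002 and 857 to 1052, and super-enhancer-like regions from 443 to 584 and 414 to 435. All these separated numbers lay above those from the full set of lists, because a call then needed fewer lists. They therefore cannot show whether a call would hold. Shared regions called ranged from 6336 to 12575, with 3147 to 6257 higher in SKBR3 and 3180 to 6318 in MDA-MB-453. The largest SKBR3 region number came without SKBR3 replicate 2, and the fewest calls without MDA-MB-453 replicate 1.

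Replicate numbers did not pair the libraries (r = −0.0017 over 19175 regions), and with a replicate block 10531 shared regions were called. The block changed no direction of a difference in list totals.

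Among named promoters that were not called, the sign turned without normalisation for BTC (−0.18), ELF3 (−0.079), GRHL2 (−0.29), SPDEF (−0.33), MYB (−0.27), OVOL2 (−0.082), RELB (−0.10), MAP3K14 (−0.00049), CDH5 (−0.15), KRT8 and KRT18 (−0.48, and −0.13 with median centring), and with summed peaks for GRHL2 (−1.11), SPDEF (−0.13), MYB (−1.36), OVOL2 (−0.96), KRT19 (0.12), BIRC3 (0.017) and VWF (1.05). Among listed promoters that were called and named, GRHL1 (0.14), NFKB1 (−0.33) and TAP2 (−0.12) turned with summed peaks and NFKB2 (−0.01) without normalisation. Leaving out 1 library gave −0.0675 to 0.0741 for KRT8 and KRT18, −0.30 to 0.23 for KRT19, −0.25 to 0.26 for MYB, −0.71 to 0.023 for OVOL1, −0.17 to 0.35 for OVOL2 and −0.27 to 0.11 for TMPRSS2. The causes were not tested.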
